A study of Mus musculus with 24 samples.

Results

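Collagen and laminin genes were selected by name, as every protein-coding gene whose symbol was Col or Lam followed by the chain numbering, which gave 53 genes of the 30202 in the annotated expression table. They comprised 19 basement membrane genes, namely 6 collagen IV chains, 11 laminin chains and the multiplexin collagens Col15a1 and Col18a1. A further 11 were fibrillar collagens and 23 were other collagens. Of the 53, 51 had a row in the count table, and the remaining pair, Col17a1 and Col6a6, appeared only in the log2 table, where they peaked at 0.73 and 1.06.

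The libraries came from C57BL/6J mouse embryos staged E10.5, in days of embryonic development, that received an intracardiac injection of either an antibody against the Notch ligand Dll4 or anti-human IgG as the control. Embryos were then kept for 5 h at 37 °C in 5% CO2 in medium to which IL-3 at 10 ng/ml, hydrocortisone at 10 µM and the injected antibody at 5 µg/ml had been added, so every group had met the cytokine and the steroid. After digestion with collagenase, CD31+ cells were sorted into Kit+ CD45+ cells, Kit+ CD45- cells and Kit- CD41+ CD45- cells, where CD31 is the endothelial adhesion protein Pecam1, CD41 the megakaryocyte integrin Itga2b and CD45 the pan-leukocyte phosphatase Ptprc. Each of the 3 populations had 4 anti-Dll4 and 4 IgG libraries, 24 in all, made from polyA RNA after PCR amplification. The labels do not give how many embryos entered a library, so the p-values rest on a spread among libraries that may be partly technical.

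Each library held 8718351 to 11379830 counts, of which collagen and laminin genes took 736 to 5219. All levels below are CPM, counts divided by the library size times its TMM factor and expressed per 1e6. The factors ran between 0.525 and 1.37 and were lowest in anti-Dll4 Kit+ CD45- replicate 4, so the levels of a library sum to between 731406 and 1908111. On this scale 3 counts, the limit that a count of 0 allows, equalled 0.200 to 0.656 CPM, for counting error only. Levels of Ptprc and Itga2b matched their gates. Ptprc was at 53.0 to 117 CPM in Kit+ CD45+ libraries and at most 1.51 CPM in the others. Itga2b reached 305 to 755 CPM in Kit- CD41+ CD45- libraries and at most 102 CPM in the others. Globin transcripts took 22.1% to 49.3% of counts in anti-Dll4 Kit+ CD45- libraries and 16.8% to 33.7% in IgG ones. The 12 macrophage markers summed to 964 to 1979 CPM in anti-Dll4 Kit+ CD45+ libraries and 257 to 2451 CPM in IgG ones, against at most 129 CPM in the other populations. In Kit- CD41+ CD45- libraries the platelet marker sum was 22903 CPM or more with anti-Dll4 and 22673 CPM or more with IgG. Endothelial genes differed there. The junction gene Cdh5 reached at most 1.20 CPM, while Egfl7 averaged 268 and 263 CPM with anti-Dll4 and IgG. Esam averaged 111 and 130 CPM and Pecam1 52.3 and 67.2 CPM, in the same order. The 3 anti-Dll4 libraries numbered 1 stood apart in sex-linked transcripts, with 523 to 1244 counts of the Y-linked Ddx3y and 1 to 5 of Xist, against at most 15 and at least 1455 in the other 21 libraries.

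A basement membrane is a thin sheet on which endothelium and epithelium rest. Laminins, trimers of one alpha, one beta and one gamma chain, assemble into a polymer bound to cell receptors, and collagen IV, made from chains such as Col4a1 and Col4a2, forms a covalently cross-linked network beside it, joined by nidogens and perlecan. Endothelial cells make much of their own basement membrane, while fibrillar collagens such as types I, III and V are produced mainly by fibroblasts and other mesenchyme and build the tensile fibres of the interstitium.

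RefSeq promoter windows, from 250 bases before to 50 after a gene's start on build GRCm38.p6, were matched by symbol for 38 of the 53 genes, some with several starts, giving 42 windows. The 5 below are shown because they belong to genes on which the expression results turn, 3 from the basement membrane and 2 fibrillar. Capitals mark every match, on either strand, to the GC box GGGCGG, to CCAAT or to TATAAA. Col4a1 lies at chr8:11312777-11313076 on the minus strand, Col4a2 at chr8:11312555-11312854 on the plus strand, Lamb1 at chr12:31265043-31265342 on the plus strand, Col3a1 at chr1:45311288-45311587 on the plus strand and Col5a1 at chr2:27886175-27886474 on the plus strand.
Col4a1: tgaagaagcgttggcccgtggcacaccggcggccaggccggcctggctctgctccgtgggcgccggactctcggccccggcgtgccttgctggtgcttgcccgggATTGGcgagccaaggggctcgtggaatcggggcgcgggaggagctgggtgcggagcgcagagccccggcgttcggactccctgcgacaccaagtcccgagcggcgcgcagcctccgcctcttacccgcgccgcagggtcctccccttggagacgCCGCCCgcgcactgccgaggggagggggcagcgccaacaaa
Col4a2: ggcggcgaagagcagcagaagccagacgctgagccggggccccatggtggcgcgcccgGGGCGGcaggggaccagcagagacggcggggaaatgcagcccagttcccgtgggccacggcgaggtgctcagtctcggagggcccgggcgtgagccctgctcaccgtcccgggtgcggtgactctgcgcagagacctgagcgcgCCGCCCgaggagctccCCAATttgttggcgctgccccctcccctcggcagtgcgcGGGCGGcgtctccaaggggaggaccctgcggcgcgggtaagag
Lamb1: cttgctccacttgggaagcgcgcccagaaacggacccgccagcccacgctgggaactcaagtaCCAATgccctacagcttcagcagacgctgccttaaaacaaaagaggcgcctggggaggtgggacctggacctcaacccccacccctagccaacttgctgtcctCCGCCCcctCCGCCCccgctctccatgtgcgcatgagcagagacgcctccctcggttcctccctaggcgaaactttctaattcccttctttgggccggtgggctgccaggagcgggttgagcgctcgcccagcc
Col3a1: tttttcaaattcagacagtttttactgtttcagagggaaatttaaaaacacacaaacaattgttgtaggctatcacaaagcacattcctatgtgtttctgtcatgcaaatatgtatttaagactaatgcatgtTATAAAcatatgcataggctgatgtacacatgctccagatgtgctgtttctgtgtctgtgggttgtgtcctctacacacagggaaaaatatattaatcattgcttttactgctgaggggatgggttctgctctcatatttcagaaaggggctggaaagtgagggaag
Col5a1: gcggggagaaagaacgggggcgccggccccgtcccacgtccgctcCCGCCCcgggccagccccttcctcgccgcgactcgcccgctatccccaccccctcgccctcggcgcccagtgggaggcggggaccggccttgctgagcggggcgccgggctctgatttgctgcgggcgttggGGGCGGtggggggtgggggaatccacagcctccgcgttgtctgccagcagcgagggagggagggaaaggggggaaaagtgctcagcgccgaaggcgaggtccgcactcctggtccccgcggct

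Col4a1 and Col4a2 are transcribed away from each other, their annotated genes overlap by 22 bases, and the 2 windows share 78 bases of chromosome 8 read on opposite strands. The Col4a1 window held 1 GC box and 1 CCAAT box, that of Col4a2 held 3 GC boxes and 1 CCAAT box, and that of Lamb1 held 2 GC boxes and 1 CCAAT box. None of these 3 windows had TATAAA. The GC box of Col4a1 lies in the 78 shared bases and is the same site as 1 of the 3 of Col4a2, so it is counted in both windows. The Col3a1 window was poor in G and C, at 37.7%, and held 1 TATAAA and neither other motif, whereas that of Col5a1 was 75% G and C with 2 GC boxes. Among the 42 windows 24 held a GC box, 13 a CCAAT box and 5 a TATAAA, against 35.7%, 37.4% and 13.6% of all 32851 mouse windows of that length. These matches describe letters in the windows only. No window was matched for Lama4, Lamc1, Col1a1 or Col5a2.

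Few of the genes were abundant. A group mean of at least 5 CPM was reached by 11 of the 51 with counts, which were the basement membrane genes Col4a1, Col4a2, Col18a1, Lama4, Lamb1 and Lamc1 and the fibrillar genes Col1a1, Col1a2, Col3a1, Col5a1 and Col5a2. These 6 basement membrane genes held 95.3% of the 50865 basement membrane counts, and these 5 fibrillar genes held 88.6% of the 8116 fibrillar counts. All other collagens together had 2579 counts. Another 16 genes had their highest group mean between 1 and 5 CPM, among them the basement membrane genes Col15a1, Col4a3, Col4a5, Lama1, Lama3, Lama5 and Lamb2. The remaining 24 stayed under 1 CPM in every group.

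The filter on low counts passed 29 of the 51, made up of 15 basement membrane, 7 fibrillar and 7 other collagens. The 22 that failed had group means of at most 0.937 CPM. In the basement membrane class these were Col4a4, Col4a6, Lamb3 and Lamc3. In the fibrillar class they were Col11a2, Col24a1, Col27a1 and Col5a3. The 14 others included Col6a1, Col6a2 and Col6a3, which encode the beaded filament collagen VI, and Col7a1, which encodes the anchoring fibril collagen. Since the filter could be passed through a single group, counts over the 29 describe them and are no evidence about the class.

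**Figure D1:**
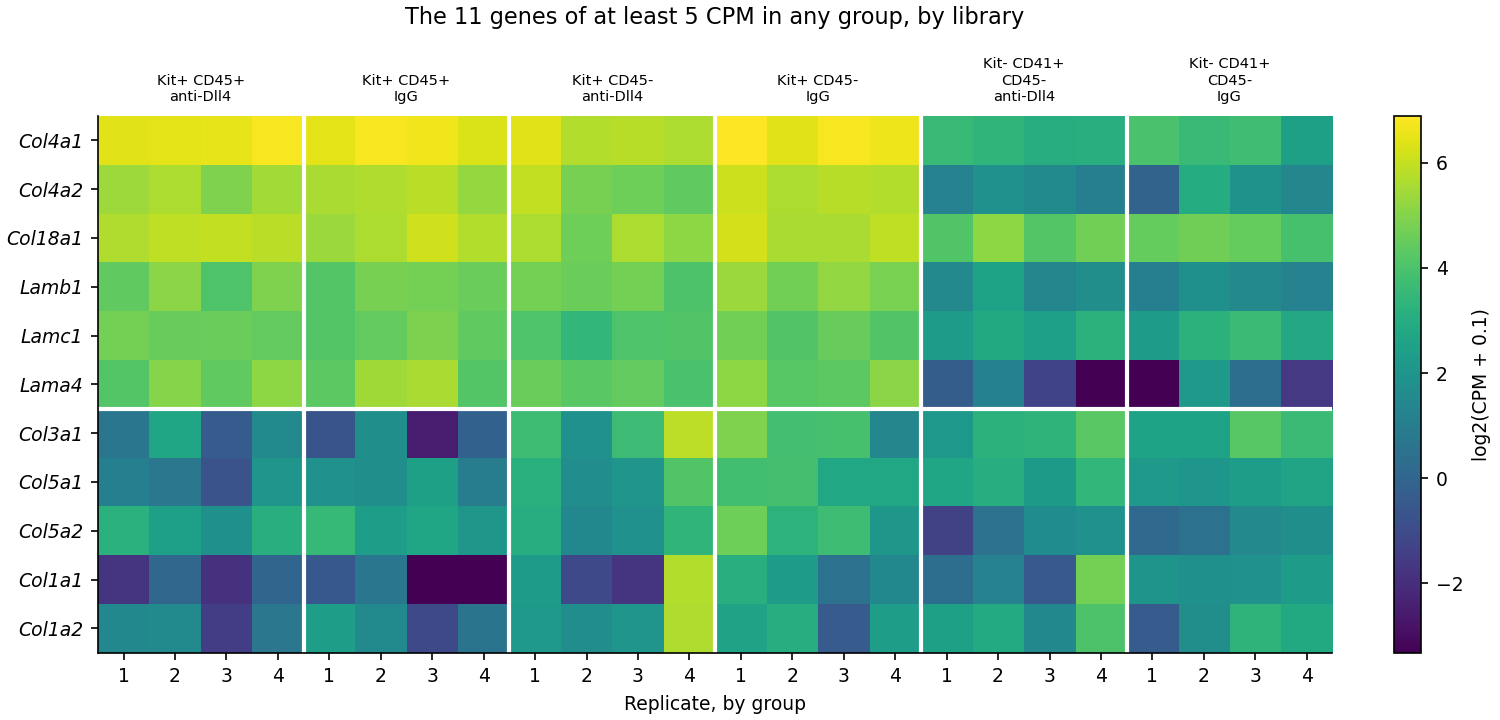
Heat map of the 11 collagen and laminin genes with a group mean of at least 5 CPM (rows, basement membrane above fibrillar) in the 24 libraries (columns, 4 replicates per group), coloured by log2(CPM + 0.1). The 6 basement membrane rows form a bright block in the Kit+ populations, with Col18a1 also bright in Kit- CD41+ CD45- cells, while fibrillar rows vary from library to library.

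Basement membrane transcripts were abundant in both Kit+ populations and low in Kit- CD41+ CD45- cells, while fibrillar transcripts were on average lowest in Kit+ CD45+ cells. Summed over its 19 genes, the basement membrane class had 252, 301, 254 and 310.2 CPM in anti-Dll4 Kit+ CD45+ libraries and 243, 311, 346 and 243 CPM in IgG ones. In Kit+ CD45- cells it had 278, 168, 204 and 162 CPM with anti-Dll4 and 373, 251, 309 and 306 CPM with IgG. The sum in Kit- CD41+ CD45- cells was 46.7, 74.3, 44.3 and 60.7 CPM with anti-Dll4 and 51.1, 75.8, 71.0 and 38.2 CPM with IgG. No Kit- CD41+ CD45- library reached the level of any Kit+ library, and the lowest Kit+ value was 162 CPM.

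The fibrillar sum followed another order. It was 18.3, 18.9, 6.88 and 19.4 CPM in anti-Dll4 Kit+ CD45+ libraries and 22.0, 18.9, 13.8 and 9.23 CPM in IgG ones. In Kit+ CD45- cells it was 45.9, 15.4, 27.1 and 189.8 CPM with anti-Dll4 and 89.4, 55.4, 41.2 and 23.9 CPM with IgG. Kit- CD41+ CD45- cells had 20.8, 34.4, 26.5 and 81.4 CPM with anti-Dll4 and 18.2, 27.8, 48.9 and 41.6 CPM with IgG. The spread within Kit+ CD45- cells was thus wide, and replicate 4 of the anti-Dll4 set stood above every other library. In the ratio of basement membrane to fibrillar counts, Kit+ CD45+ libraries ranged from 13.7 to 36.8 with anti-Dll4 and from 11.03 to 26.3 with IgG. Kit+ CD45- libraries ranged from 0.851 to 10.9 with anti-Dll4 and from 4.17 to 12.8 with IgG, and Kit- CD41+ CD45- libraries from 0.746 to 2.25 with anti-Dll4 and from 0.917 to 2.80 with IgG. In bulk libraries such as these, fewer cells of a type and less RNA per cell cannot be told apart.

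**Figure D2:**
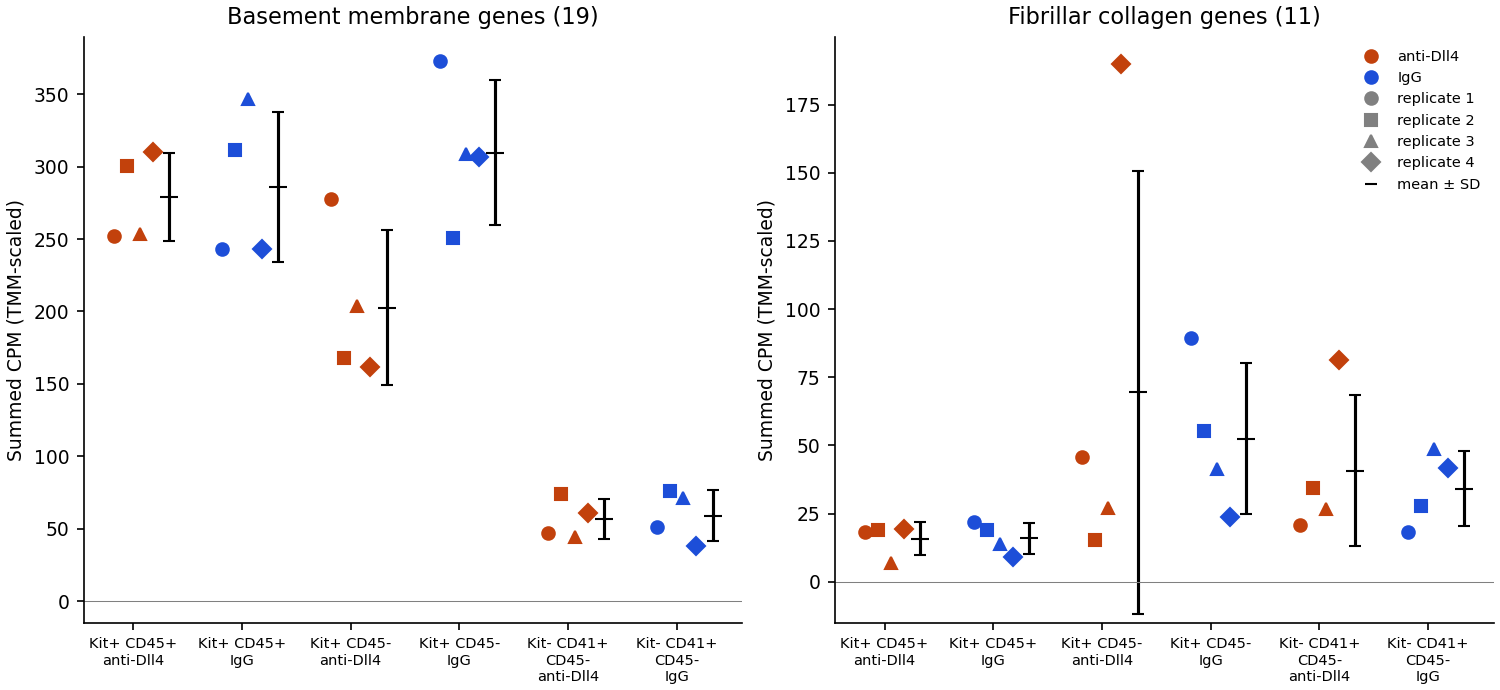
Summed CPM (linear axis) of the 19 basement membrane genes and of the 11 fibrillar genes in each library, by population, with anti-Dll4 left of IgG; symbol shapes are replicates and the bar beside them gives the mean ± SD of 4. The basement membrane sum separates both Kit+ populations (162 CPM and above) from Kit- CD41+ CD45- cells (75.8 CPM and below), and 1 anti-Dll4 Kit+ CD45- library reaches 189.8 CPM of fibrillar transcripts.

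The basement membrane set that distinguished Kit+ CD45- from Kit- CD41+ CD45- cells comprised both major collagen IV chains, Col18a1, Col15a1 and one laminin chain of each kind. Col4a1, whose product pairs with that of Col4a2 in the ubiquitous collagen IV trimer, lies at chr8:11198423-11312826 on the minus strand (mm10). It had 87.4, 53.2, 55.0 and 49.0 CPM in anti-Dll4 Kit+ CD45- libraries and 119, 85.6, 109.5 and 99.6 CPM in IgG ones. Among Kit- CD41+ CD45- libraries it had 11.5, 10.1, 8.15 and 8.45 CPM with anti-Dll4 and 15.3, 11.9, 13.6 and 5.55 CPM with IgG. Every Kit+ CD45- library lay above every Kit- CD41+ CD45- library, and the log2 fold change was 2.68 (SE 0.24, adjusted p = 8.31e-09) under anti-Dll4 and 3.15 (SE 0.24, adjusted p = 2.01e-09) under IgG. All adjusted p-values here are from edgeR's quasi-likelihood test with Benjamini-Hochberg adjustment over 15618 genes, called at 0.05. The fit did not pair libraries by replicate number.

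Under anti-Dll4, 7 of the 29 tested collagen and laminin genes were called in Kit+ CD45- over Kit- CD41+ CD45- cells, all higher, where 29.9% of all genes tested were called and 14.7% were called higher. Under IgG 8 were called, again all higher, against 27.9% and 14% of all genes. The balance of all genes under anti-Dll4 depended on the scaling, with 2291 called higher and 2381 lower here and 3147 and 1986 with upper-quartile factors. The total is therefore near the background. By class, 7 of 15 basement membrane genes were called under each antibody, with median log2 fold changes of 1.06 under anti-Dll4 and 1.31 under IgG, beside 0.07 and 0.06 over all genes. Of the 7 fibrillar genes, none was called under anti-Dll4, where 1 had an unadjusted p under 0.05, and 1, Col5a2, was called under IgG.

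Col4a2 (chr8:11312805-11449287, plus strand) had 61.5, 28.1, 25.1 and 20.8 CPM in anti-Dll4 Kit+ CD45- libraries and 68.4, 48.9, 55.4 and 51.9 CPM in IgG ones. In Kit- CD41+ CD45- libraries it had 2.21, 3.53, 2.82 and 2.00 CPM with anti-Dll4 and 0.855, 7.97, 3.61 and 2.55 CPM with IgG. Its log2 fold change was 3.68 (SE 0.43, adjusted p = 5.21e-07 by edgeR) under anti-Dll4 and 3.90 (SE 0.42, adjusted p = 2.18e-07) under IgG. The pair did not keep a fixed proportion in Kit- CD41+ CD45- cells, where Col4a1 had 179 counts and Col4a2 had 10 in IgG replicate 1, and 134 and 90 in IgG replicate 2. In Kit+ CD45- libraries the Col4a1 to Col4a2 count ratio ranged only from 1.42 to 2.36 with anti-Dll4 and from 1.73 to 1.98 with IgG. Reads in the 22 bases of overlap could count for either gene, since no source used here states the strand setting of the counting.

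The laminin chains called in the same comparison were Lama4, Lamb1 and Lamc1, the alpha 4, beta 1 and gamma 1 chains that form a laminin typical of vascular endothelium. Lamb1 (chr12:31265234-31329644, plus strand) had 26.6, 24.4, 26.7 and 16.2 CPM in anti-Dll4 Kit+ CD45- libraries and 40.4, 26.4, 37.1 and 28.3 CPM in IgG ones. The Kit- CD41+ CD45- libraries held 2.71, 6.05, 2.51 and 3.22 CPM with anti-Dll4 and 2.05, 3.36, 2.70 and 2.22 CPM with IgG. The groups were far apart, with log2 fold changes of 2.70 (SE 0.29, adjusted p = 1.72e-07 by edgeR) under anti-Dll4 and 3.67 (SE 0.30, adjusted p = 6.61e-09) under IgG.

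Lama4 (chr10:38965515-39110188, plus strand) had 23.5, 19.3, 21.6 and 15.5 CPM in anti-Dll4 Kit+ CD45- libraries and 35.8, 19, 19.7 and 34.5 CPM in IgG ones. It was low in Kit- CD41+ CD45- cells, at 0.703, 2.12, 0.313 and 0 CPM with anti-Dll4 and 0, 4.43, 1.20 and 0.222 CPM with IgG, so 1 library of each group had no count. Its fold change was accordingly among the highest of the set, 4.63 (SE 0.76, adjusted p = 5.19e-05 by edgeR) under anti-Dll4 and 4.18 (SE 0.70, adjusted p = 7.79e-05) under IgG on the log2 scale. Lamc1 (chr1:153218922-153332786, minus strand) changed least of the laminin trio. It averaged 15.3 ± 2.98 CPM in anti-Dll4 Kit+ CD45- cells and 6.68 ± 1.98 CPM in anti-Dll4 Kit- CD41+ CD45- cells (SD, n = 4 each), and 20.8 ± 4.35 and 8.42 ± 3.24 CPM in the same cells under IgG. Its log2 fold change was 1.19 (SE 0.26, adjusted p = 0.00122 by edgeR) under anti-Dll4 and 1.31 (SE 0.26, adjusted p = 0.000446) under IgG.

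The multiplexin collagens carry heparan or chondroitin sulfate chains and sit in the basement membrane zone, and the C-terminal fragment of Col18a1 is endostatin. Col18a1 (chr10:77052178-77166548, minus strand) had 49.5, 25.1, 49.8 and 35.6 CPM in anti-Dll4 Kit+ CD45- libraries and 75.2, 48.4, 48.5 and 61.0 CPM in IgG ones. It was also well expressed in Kit- CD41+ CD45- cells, at 17.5, 35.9, 17.5 and 25.9 CPM with anti-Dll4 and 22.3, 25.4, 22.2 and 15.0 CPM with IgG, so the groups overlapped under anti-Dll4 and not under IgG. The log2 fold change was 1.46 (SE 0.25, adjusted p = 8.53e-05 by edgeR) under IgG. Under anti-Dll4 it was 0.73 (SE 0.25, adjusted p = 0.0273), and the call was lost when replicate 1 or 3 of either anti-Dll4 group was left out, with adjusted p between 0.0939 and 0.106, and in 3 of 9 other settings. Col15a1 averaged 1.69 ± 0.285 CPM in anti-Dll4 Kit+ CD45- cells and 0.127 ± 0.096 CPM in anti-Dll4 Kit- CD41+ CD45- cells (SD, n = 4 each). The second mean rests on counts of 2, 2, 1 and 0 and lies below the 0.301 to 0.334 CPM that 3 counts equal there. Under IgG the Col15a1 counts were 18, 6, 23 and 29 in Kit+ CD45- libraries and 0, 6, 3 and 5 in Kit- CD41+ CD45- libraries.

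Divided by exon length, Col4a1 stood first of all collagen and laminin genes in both Kit+ populations, at 12.7 CPM per kb in Kit+ CD45+ cells under each antibody and at 8.19 and 13.8 CPM per kb in Kit+ CD45- cells under anti-Dll4 and IgG. In Kit- CD41+ CD45- cells Col18a1 came first, at 3.45 CPM per kb with anti-Dll4 and 3.03 CPM per kb with IgG. Col4a1 followed at 1.28 and 1.55 CPM per kb, and each of the 4 Col18a1 values lay above each of the 4 Col4a1 values under both antibodies. In IgG Kit+ CD45- cells Col4a1 lay above Col4a2 in the same strict sense, while the following neighbours, Col4a2 at 8.48 and Col18a1 at 8.30 CPM per kb, overlapped. In anti-Dll4 Kit+ CD45- cells Col4a1, Col18a1 at 5.69 and Col4a2 at 5.12 CPM per kb overlapped as neighbours in that order.

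Kit+ CD45+ cells showed the same basement membrane set above Kit- CD41+ CD45- cells. Of the 29 tested genes 9 were called higher and 5 lower under anti-Dll4, where 20.4% and 17.3% of all genes were called higher and lower and 37.6% in either direction. Under IgG 9 were called higher and 4 lower, against 19.7%, 17.5% and 37.2%. The 3 population comparisons within an antibody reuse the same libraries, so their fold changes are not independent of each other. In the basement membrane class 7 of 15 were called higher and 2 lower under each antibody, with medians of 1.4 under anti-Dll4 and 1.41 under IgG.

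In Kit+ CD45+ libraries Col4a1 had 86.3, 89.4, 91.9 and 111 CPM with anti-Dll4 and 88.3, 110.0, 101 and 79.7 CPM with IgG, and its log2 fold change over Kit- CD41+ CD45- cells was 3.31 (SE 0.24, adjusted p = 3.17e-10 by edgeR) under anti-Dll4 and 3.03 (SE 0.23, adjusted p = 6.8e-10) under IgG. Lamb1 had 21.1, 35.0, 16.9 and 30.5 CPM with anti-Dll4 and 17.6, 28.1, 26.8 and 23.7 CPM with IgG. Lama4 had 18.0, 32.8, 21.1 and 35.2 CPM with anti-Dll4 and 19.8, 43.4, 48.1 and 18.0 CPM with IgG. Both were above every Kit- CD41+ CD45- library. The log2 fold changes of Lamb1 were 2.83 and 3.21, those of Lama4 were 5.05 and 4.43, and those of Col4a2 were 3.96 and 3.70, under anti-Dll4 and IgG in that order.

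Against Kit- CD41+ CD45- cells, the sum of endothelial marker transcripts moved in the same direction as this set. The 14 endothelial markers summed to 2187 to 2837 CPM in anti-Dll4 Kit+ CD45+ libraries and 2041 to 2907 CPM in IgG ones. They summed to 657 to 1199 CPM in anti-Dll4 Kit+ CD45- libraries and 1160 to 2539 CPM in IgG ones, against 477 to 579 and 412 to 727 CPM in Kit- CD41+ CD45- libraries with anti-Dll4 and IgG. In Kit+ CD45- over Kit- CD41+ CD45- cells 9 of the 14 were called higher under anti-Dll4 and 11 under IgG, against 14.7% and 14% of all genes. Under anti-Dll4 Egfl7, Esam and Tie1 averaged less in Kit+ CD45- cells, at 185, 74.0 and 16.8 CPM, than in Kit- CD41+ CD45- cells, at 268, 111 and 22.1 CPM. Between the Kit+ populations under IgG, the marker sum averaged 2583 CPM in Kit+ CD45+ and 1612 CPM in Kit+ CD45- libraries. The basement membrane sum was 243 to 346 and 251 to 373 CPM there, in the same order, and did not follow the markers. Under anti-Dll4 it was 252 to 310 CPM in Kit+ CD45+ and 162 to 278 CPM in Kit+ CD45- libraries. The part of endothelial content in the basement membrane results was not tested.

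Some genes ran the other way and were lower in Kit+ CD45+ than in Kit- CD41+ CD45- cells. Among those of at least 5 CPM, Col3a1 was called lower under IgG only (log2 fold change -3.20, adjusted p = 0.00693 by edgeR). Col1a1 (-3.74, adjusted p = 0.0338) and Col5a1 were called lower under anti-Dll4 only. The Col1a1 call was lost in 9 of 29 fits without 1 or more libraries. Others that ran this way were of lower level. Col2a1, the cartilage collagen that the notochord and neural tube also express in embryos, had 0.652, 0, 0 and 0 CPM in anti-Dll4 Kit+ CD45+ libraries and 2.01, 5.04, 3.66 and 2.11 CPM in anti-Dll4 Kit- CD41+ CD45- libraries. It was lower in Kit+ CD45+ cells by log2 fold changes of -4.31 (SE 1.18, adjusted p = 0.00586 by edgeR) under anti-Dll4 and -5.06 (SE 1.21, adjusted p = 0.002) under IgG. The 8 neural markers summed to 0.0775 to 4.28 CPM in anti-Dll4 Kit+ CD45+ libraries and 18.6 to 34.3 CPM in anti-Dll4 Kit- CD41+ CD45- libraries, and their part in the Col2a1 result was not tested. Col4a3, a collagen IV chain of specialised basement membranes such as the glomerular one, averaged 0.345 ± 0.124 CPM in anti-Dll4 Kit+ CD45+ cells and 1.80 ± 1.03 CPM in anti-Dll4 Kit- CD41+ CD45- cells (SD, n = 4 each; log2 fold change -2.35, SE 0.77, adjusted p = 0.0198). Under IgG its log2 fold change was -2.19 (adjusted p = 0.0296 by edgeR). The call was lost in 5 of 29 fits without 1 or more libraries under anti-Dll4, and in 6 of 29 and 2 of 7 other settings under IgG.

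Col23a1, a transmembrane collagen, was the other collagen called higher in Kit+ CD45+ than in Kit- CD41+ CD45- cells, at 4.05 ± 1.1 and 1.34 ± 1.1 CPM under anti-Dll4 (SD, n = 4 each) and at 4.96 ± 2.64 and 1.86 ± 0.56 CPM under IgG. Its log2 fold changes were 1.59 (SE 0.51, adjusted p = 0.0166 by edgeR) and 1.42 (SE 0.50, adjusted p = 0.0279), under anti-Dll4 and IgG in that order. The call was lost in 6 of 29 fits without 1 or more libraries under anti-Dll4 and in 7 of 29 under IgG.

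**Figure D3:**
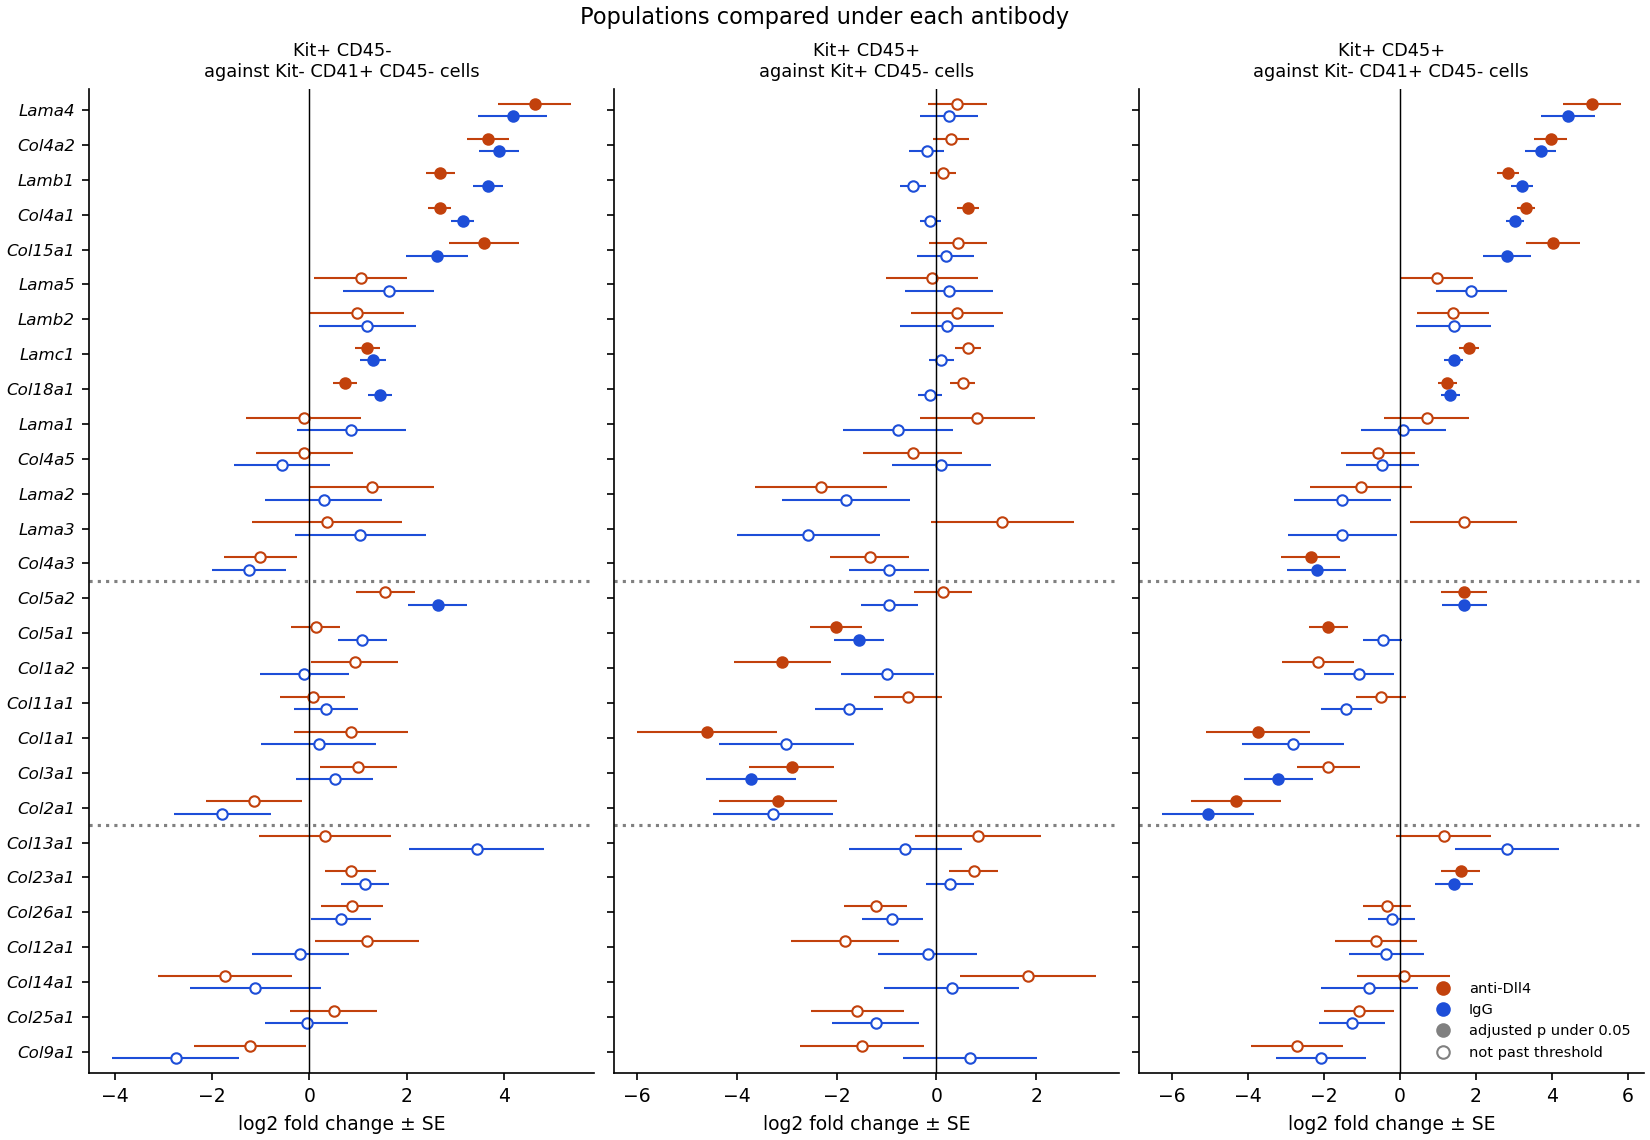
Log2 fold changes between populations for 28 of the 29 collagen and laminin genes that passed the filter, by comparison, with bars of 1 SE; filled symbols were called at an adjusted p under 0.05. Basement membrane genes such as Col4a1 (3.31 under anti-Dll4 and 3.03 under IgG for Kit+ CD45+ over Kit- CD41+ CD45-) lie to the right in both comparisons with Kit- CD41+ CD45- cells, and fibrillar genes such as Col3a1 (-2.90 and -3.71) lie to the left in Kit+ CD45+ over Kit+ CD45- cells.

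Between the Kit+ populations the calls were few, mostly of fibrillar genes, and most were lost in some fits without libraries. Of the 29 tested genes, 1 was called higher and 5 lower in Kit+ CD45+ than in Kit+ CD45- cells under anti-Dll4, where 16.6% of all genes were called higher, 12.6% lower and 29.2% in either direction. Under IgG 2 were called lower and none higher, against 9.18%, 10% and 19.2% of all genes called lower, higher and in either direction. The split of all genes again moved with upper-quartile factors, to 2086 called higher and 2425 lower in place of 2590 and 1970 under anti-Dll4, and to 1228 and 1707 in place of 1564 and 1434 under IgG. The 7 fibrillar genes supplied all of the lower calls, 5 under anti-Dll4 with a median log2 fold change of -2.90 and 2 under IgG with a median of -1.76, beside 0.10 and 0.04 over all genes. The anti-Dll4 call of Col2a1, at -3.17 (adjusted p = 0.0467 by edgeR), was lost in 19 of 29 fits without 1 or more libraries. Leaving out replicate 1 of every group left 0 calls under IgG, and leaving out replicate 4 of every group left 1 under anti-Dll4. Of the 15 basement membrane genes 1, Col4a1, was called under anti-Dll4, and none was called under IgG, where none had an unadjusted p under 0.05 either.

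Col3a1, the type III collagen of distensible tissue, lies at chr1:45311538-45349706 on the plus strand. It had 1.49, 6.43, 0.688 and 2.81 CPM in anti-Dll4 Kit+ CD45+ libraries and 0.532, 3.25, 0.0762 and 0.807 CPM in IgG ones. In Kit+ CD45- libraries it had 13.0, 3.53, 12.8 and 58.2 CPM with anti-Dll4 and 29.8, 14.4, 14.9 and 2.52 CPM with IgG. The groups overlapped by single libraries under both antibodies. The log2 fold change was -2.90 (SE 0.85, adjusted p = 0.0126 by edgeR) under anti-Dll4 and -3.71 (SE 0.91, adjusted p = 0.00521) under IgG. Without anti-Dll4 Kit+ CD45- replicate 4 the first was -1.78 with an adjusted p of 0.122.

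Col5a1, which initiates and limits the width of collagen fibrils, lies at chr2:27886425-28039514 on the plus strand. It had 2.05, 1.55, 0.516 and 3.86 CPM in anti-Dll4 Kit+ CD45+ libraries and 3.53, 3.33, 5.56 and 1.88 CPM in IgG ones. In Kit+ CD45- libraries it had 8.88, 3.15, 3.90 and 17.3 CPM with anti-Dll4 and 13.7, 14.6, 6.73 and 6.92 CPM with IgG. Under IgG the groups did not overlap. It was lower in Kit+ CD45+ cells by -2.01 (SE 0.53, adjusted p = 0.00587 by edgeR) under anti-Dll4 and -1.55 (SE 0.51, adjusted p = 0.0332) under IgG on the log2 scale, and the IgG call was lost when Kit+ CD45+ replicate 1, 2 or 4 or Kit+ CD45- replicate 1 or 2 of the IgG set was left out, with adjusted p between 0.0676 and 0.0979.

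Type I collagen, encoded by Col1a1 and Col1a2, was called lower under anti-Dll4 and not under IgG, where the replicate block by antibody set called Col1a1, and the anti-Dll4 calls depended on single libraries. The test of whether the anti-Dll4 effect differs between populations called neither gene. Col1a1 had 0.186, 0.930, 0.172 and 0.912 CPM in anti-Dll4 Kit+ CD45+ libraries and 4.78, 0.378, 0.200 and 51.8 CPM in anti-Dll4 Kit+ CD45- libraries. Col1a2 had 2.61, 2.79, 0.258 and 1.54 CPM in the Kit+ CD45+ libraries and 4.51, 3.15, 3.90 and 51.2 CPM in the Kit+ CD45- libraries. In both genes replicate 4 of the Kit+ CD45- set stood far above the other 3. The log2 fold changes were -4.60 (SE 1.4, adjusted p = 0.0158 by edgeR) for Col1a1 and -3.08 (SE 0.98, adjusted p = 0.02) for Col1a2. Without that library they were -1.63 (adjusted p = 0.39) and -1.11 (adjusted p = 0.394), and 2 collagen and laminin genes, Col5a1 and Col2a1, were called in place of 6. Both calls were also lost without anti-Dll4 Kit+ CD45+ replicate 3, at adjusted p of 0.0513 for Col1a1 and 0.0596 for Col1a2, and that of Col1a2 without anti-Dll4 Kit+ CD45+ replicate 4, at 0.0542.

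The same library was high in transcripts of small proteoglycans that bind collagen fibrils. The sum of decorin (Dcn) and lumican (Lum) was 393 CPM in anti-Dll4 Kit+ CD45- replicate 4 and at most 25.1 CPM in the other 3 anti-Dll4 Kit+ CD45- libraries. Replicate 4 of the anti-Dll4 Kit- CD41+ CD45- set had 168 CPM of the pair, against 8.34 to 19.7 CPM in the other 3, and its Col1a1 level was 26.9 CPM, against 0.627 to 2.22 CPM in those 3. Replicate 4 of the anti-Dll4 Kit+ CD45+ set had 0.210 CPM of the pair. The 18 mesenchymal markers summed to 121 to 226 CPM in anti-Dll4 Kit+ CD45+ libraries and 63.6 to 366 CPM in IgG ones. They summed to 58.7 to 636 CPM in anti-Dll4 Kit+ CD45- libraries and 161 to 319 CPM in IgG ones, with Lum at 0 in all IgG Kit+ CD45+ libraries. In Kit- CD41+ CD45- libraries they summed to 137 to 370 CPM with anti-Dll4 and 110 to 328 CPM with IgG. Dcn and Lum are on this list, whose other genes did not all follow. Pdgfra, Twist1 and Prrx1 reached at most 3.50, 7.56 and 8.88 CPM in anti-Dll4 Kit+ CD45- libraries, against 13.4, 35.4 and 20.4 CPM with IgG. Postn reached 67.6 CPM, against 12.4 CPM. The part of mesenchymal transcripts in the fibrillar results was not tested.

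**Figure D4:**
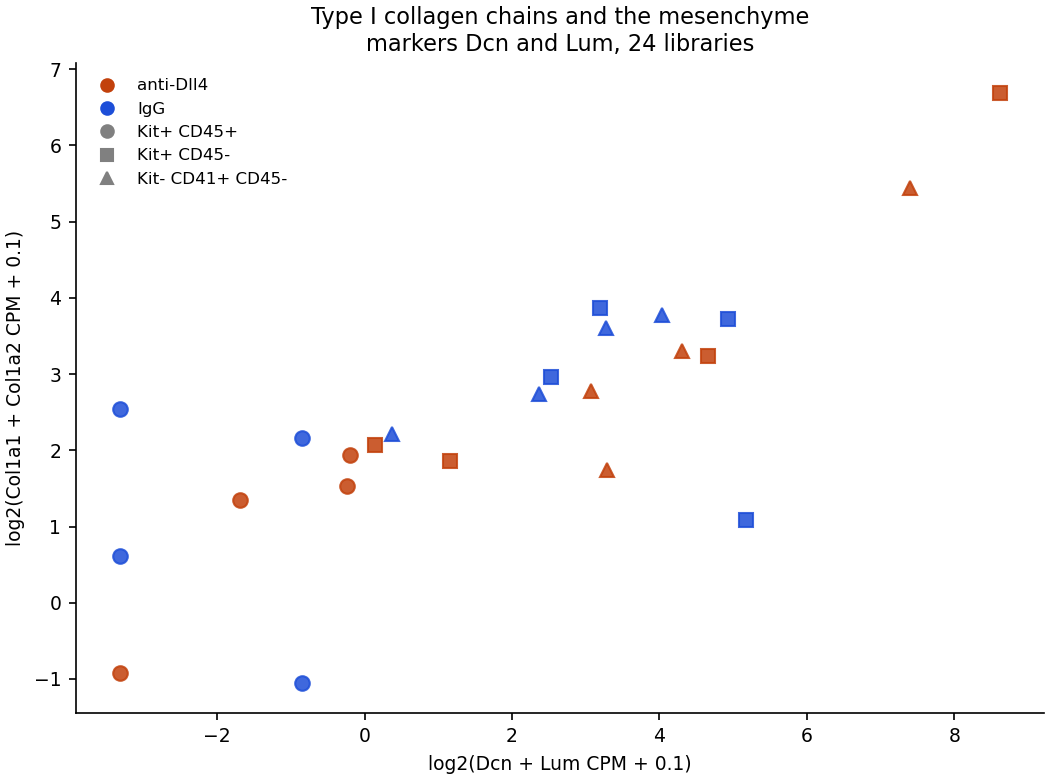
Col1a1 plus Col1a2 (vertical axis) against Dcn plus Lum (horizontal axis) in each of the 24 libraries, both as log2(CPM + 0.1), with colour for the antibody and shape for the population. The 2 libraries numbered 4 of the anti-Dll4 Kit+ CD45- and Kit- CD41+ CD45- sets lie at the upper right, at 393 and 168 CPM of Dcn plus Lum. The sums do not pair in every library. IgG Kit+ CD45- replicate 3 has 35.9 CPM of Dcn plus Lum and 2.02 CPM of Col1a1 plus Col1a2, and IgG Kit+ CD45+ replicate 1 has 0 and 5.72 CPM.

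Col5a2, the partner chain of Col5a1, did not follow the other fibrillar genes. It had 9.03, 5.34, 3.44 and 8.28 CPM in anti-Dll4 Kit+ CD45+ libraries and 11.4, 5.07, 6.24 and 4.12 CPM in IgG ones, against 0.301, 1.31, 3.03 and 3.45 CPM and 1.03, 1.33, 2.70 and 3.33 CPM in Kit- CD41+ CD45- libraries with anti-Dll4 and IgG. The groups overlapped under anti-Dll4, at 3.44 and 3.45 CPM, and not under IgG. Col5a2 was higher in Kit+ CD45+ cells by a log2 fold change of 1.69 under each antibody (SE 0.60, adjusted p = 0.0303 under anti-Dll4 and 0.0292 under IgG by edgeR), while Col5a1 was lower by -1.88 (SE 0.52, adjusted p = 0.00621) under anti-Dll4. The Col5a2 call was lost in 7 of 29 fits without 1 or more libraries under anti-Dll4 and in 6 of 29 under IgG. Col5a2 overlaps another annotated gene, as do 20 of the 53 genes in all, and reads from overlapping genes cannot be told apart without strand.

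Col4a1 was the basement membrane gene called between the Kit+ populations, under anti-Dll4 only. Its means there were 94.7 ± 11.2 CPM in Kit+ CD45+ cells and 61.1 ± 17.7 CPM in Kit+ CD45- cells (SD, n = 4 each), with a log2 fold change of 0.63 (SE 0.22, adjusted p = 0.0303 by edgeR). The groups overlapped through Kit+ CD45- replicate 1 at 87.4 CPM, and the call was lost when Kit+ CD45- replicate 2, 3 or 4 or Kit+ CD45+ replicate 4 of the anti-Dll4 set was left out, with adjusted p between 0.067 and 0.114. It was also lost in 4 of 9 other settings, among them upper-quartile factors, at an adjusted p of 0.0795. Under IgG the means were 94.9 ± 13.5 and 103 ± 14.2 CPM, and the log2 fold change was -0.12 (SE 0.21, adjusted p = 0.745). Whether the anti-Dll4 effect differed between populations was tested for each gene, and Col4a1 was not called.

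The comparison of anti-Dll4 with IgG within each population gave no call among the collagen and laminin genes. In edgeR's test 0 of the 29 passed in any of the 3 populations, in the mean over the 3 populations or in the test of the difference between populations, and DESeq2 called 0 as well. Over all genes DESeq2 called 82 for the Kit+ CD45- population, 3 higher and 79 lower with anti-Dll4. It called 14 for the Kit+ CD45+ population and 2 for the Kit- CD41+ CD45- one, 31 for the mean and 25 for the difference. The background in edgeR was low, with 0.0064% of all genes called in Kit+ CD45+ cells and 0% for each of the other populations. It was 0% for the mean and 0.0256% for the difference. At an unadjusted p under 0.05 there were 2 of the 29 in Kit+ CD45- cells, 0 in each of the other populations, 2 for the mean and 0 for the difference, where all genes gave 1733 (11.1%) in Kit+ CD45- cells, 453 (2.9%) in the Kit+ CD45+ and 435 (2.79%) in the Kit- CD41+ CD45- population, 1311 (8.39%) for the mean and 631 (4.04%) for the difference.

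The pair in Kit+ CD45- cells was Col4a1 and Col18a1, both lower with anti-Dll4. Col4a1 averaged 61.1 ± 17.7 CPM with anti-Dll4 and 103 ± 14.2 CPM with IgG (SD, n = 4 each), and the groups overlapped by 1 library. That library, anti-Dll4 replicate 1 at 87.4 CPM, had 523 counts of Ddx3y, where every IgG Kit+ CD45- library had 0. Sex-linked transcripts were thus not balanced between the antibodies, and their part was not tested. The log2 fold change of Col4a1 was -0.76 (SE 0.22, unadjusted p = 0.0019, adjusted p = 0.235 by edgeR). Col18a1 averaged 40.0 ± 11.9 CPM with anti-Dll4 and 58.3 ± 12.7 CPM with IgG, a log2 fold change of -0.54 (SE 0.24, unadjusted p = 0.035, adjusted p = 0.419). Col4a2, Lamb1, Lamc1 and Lama4 had log2 values of -0.73, -0.49, -0.45 and -0.45 in these cells, with adjusted p of 0.458, 0.483, 0.495 and 0.788.

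The median log2 value of the 15 basement membrane genes was -0.0025 in Kit+ CD45+ cells, beside 0 over all genes. It was -0.45 among Kit+ CD45- libraries, beside -0.03, and -0.28 among Kit- CD41+ CD45- libraries, beside -0.01. Those of the 7 fibrillar genes were 0.07, 0.26 and -0.01 in the same order. Endothelial markers also differed in Kit+ CD45- cells, where Pecam1 averaged 85.8 ± 31.9 CPM with anti-Dll4 and 155 ± 67.0 CPM with IgG (SD, n = 4 each; log2 fold change -0.85, adjusted p = 0.301 by edgeR), and globin took a higher share of several anti-Dll4 libraries. The part of either in the Col4a1 values was not tested.

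**Figure D5:**
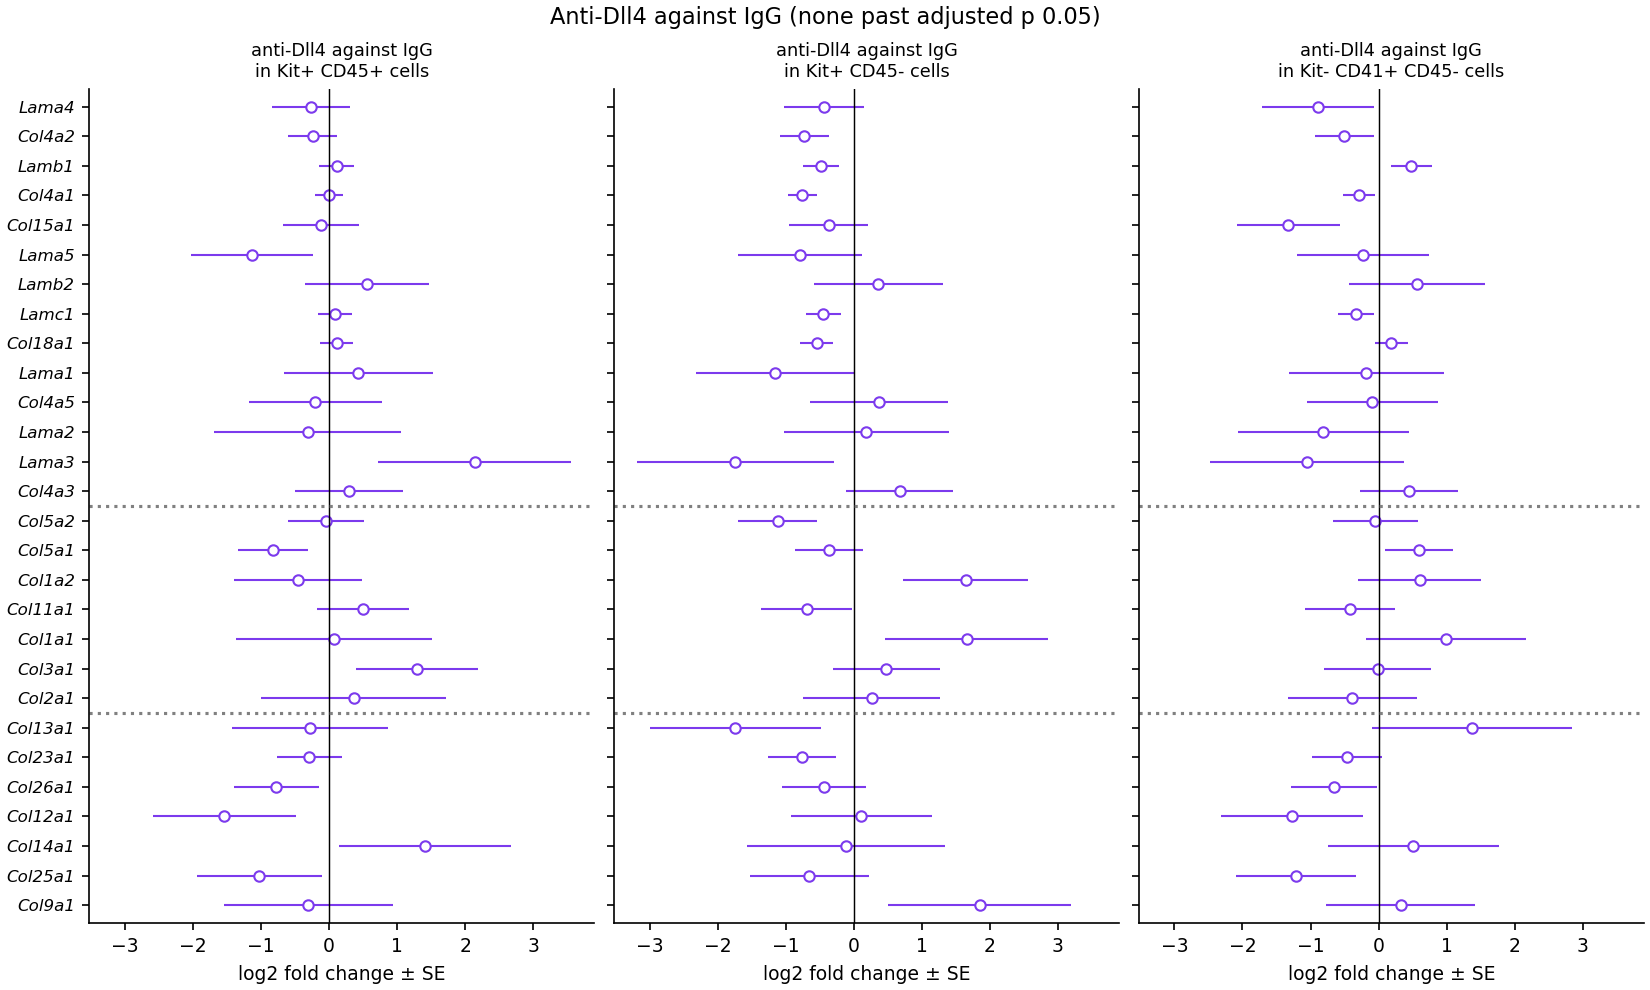
Log2 fold change of anti-Dll4 over IgG in each population for 28 of the 29 collagen and laminin genes that passed the filter, with bars of 1 SE. Values scatter about 0 in Kit+ CD45+ cells, lie mostly below it in Kit+ CD45- cells (Col4a1 at -0.76), and none of the 29 was called.

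Among genes whose products assemble with the basement membrane, most were also higher in the Kit+ populations than in Kit- CD41+ CD45- cells. Of 12 partner genes 11 were tested, and 7 were called higher in Kit+ CD45- than in Kit- CD41+ CD45- cells under each antibody and none lower, where 14.7% of all genes were called higher and 15.2% lower under anti-Dll4 and 14% and 13.8% under IgG. Nid1 encodes nidogen, which bridges laminin and collagen IV. It averaged 45.3 ± 6.25 CPM in Kit+ CD45+ cells, 35.8 ± 9.53 CPM in the Kit+ CD45- group and 3.25 ± 1.60 CPM among Kit- CD41+ CD45- cells under anti-Dll4 (SD, n = 4 each), and 45.0 ± 16.3, 46.4 ± 7.74 and 3.55 ± 1.57 CPM under IgG. Its log2 fold change in Kit+ CD45- over Kit- CD41+ CD45- cells was 3.46 (SE 0.37, adjusted p = 1.13e-07 by edgeR) under anti-Dll4 and 3.72 (SE 0.36, adjusted p = 6.41e-08) under IgG. Nid2, Pxdn, which cross-links collagen IV, Hspg2, which encodes perlecan, and the collagen-binding glycoprotein Sparc were called higher as well.

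Between the Kit+ populations few partners differed. Egfl7, an endothelial matrix protein that is also in the endothelial marker list, was higher in Kit+ CD45+ than in Kit+ CD45- cells by 1.39 (SE 0.22, adjusted p = 5.95e-05 by edgeR) under anti-Dll4 and 0.95 (SE 0.22, adjusted p = 0.00347) under IgG on the log2 scale. Tinagl1, a laminin-binding matrix protein, was lower by -1.86 (adjusted p = 0.0021) and -1.87 (adjusted p = 0.00313). Its means were 13.2 ± 5.57 and 47.7 ± 18.2 CPM in Kit+ CD45+ and Kit+ CD45- cells with anti-Dll4 (SD, n = 4 each).

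Collagen processing genes were called in both directions. Of 22 tested, 5 were called higher and 6 lower in Kit+ CD45- than in Kit- CD41+ CD45- cells under anti-Dll4, and 9 higher and 6 lower under IgG, against 29.9% and 27.9% of all genes called in either direction. Serpinh1, the collagen chaperone of the endoplasmic reticulum, averaged 147 ± 134 CPM in IgG Kit+ CD45- cells and 32.6 ± 8.83 CPM in IgG Kit- CD41+ CD45- cells (SD, n = 4 each), a log2 fold change of 2.18 (SE 0.50, adjusted p = 0.00193 by edgeR). Mia3, which loads procollagen into transport vesicles, ran opposite, at 22.9 ± 5.78 and 42.8 ± 8.85 CPM (log2 fold change -0.91, SE 0.19, adjusted p = 0.000654). Colgalt1, which adds galactose to collagen hydroxylysine, was called higher in Kit+ CD45+ than in Kit- CD41+ CD45- cells, by 2.12 (SE 0.29, adjusted p = 3.07e-06) under anti-Dll4 and 2.05 (SE 0.29, adjusted p = 4.44e-06) under IgG.

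Among receptors, calls ran in both directions. The platelet collagen receptor Gp6 averaged 2.91 ± 1.26 CPM in Kit+ CD45- cells and 155 ± 18.2 CPM in Kit- CD41+ CD45- cells with anti-Dll4 (SD, n = 4 each; log2 fold change -5.73, SE 0.54, adjusted p = 2.29e-08 by edgeR), and 17.0 ± 11.1 and 157 ± 11.3 CPM with IgG (-3.22, SE 0.46, adjusted p = 9.23e-06). Itga1, the alpha chain of a collagen and laminin receptor of vascular cells, ran the other way, by 3.28 (SE 0.56, adjusted p = 9.16e-05) under anti-Dll4 and 4.11 (SE 0.57, adjusted p = 7.21e-06) under IgG. Itga6, the alpha chain of laminin receptors, was higher in Kit+ CD45+ than in Kit+ CD45- cells, at 75.2 ± 6.85 and 34.4 ± 10.4 CPM with anti-Dll4 (1.12, SE 0.17, adjusted p = 3.1e-05), and highest in Kit- CD41+ CD45- cells, at 97.8 ± 3.77 CPM. In all, 3 of 13 tested receptors were called higher and 5 lower in Kit+ CD45- than in Kit- CD41+ CD45- cells under anti-Dll4, and 2 higher and 4 lower under IgG, where 14.7% of all genes were higher and 15.2% lower under anti-Dll4 and 14% and 13.8% under IgG.

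Matrix proteases and their inhibitors were mostly higher in Kit+ CD45+ than in Kit- CD41+ CD45- cells. Of 13 tested, 11 were called higher and 2 lower in Kit+ CD45+ than in Kit- CD41+ CD45- cells under anti-Dll4, and 11 higher and 1 lower under IgG, beside 20.4% higher and 17.3% lower of all genes under anti-Dll4 and 19.7% and 17.5% under IgG. The gelatinase Mmp2, which degrades collagen IV, averaged 55.0 ± 19.8 CPM in Kit+ CD45+ cells and 5.19 ± 2.93 CPM in Kit- CD41+ CD45- cells with anti-Dll4 (SD, n = 4 each; log2 fold change 3.40, SE 0.51, adjusted p = 1.01e-05 by edgeR). Timp3, the inhibitor that binds to the matrix, was lower, at 110.2 ± 11.8 and 385 ± 54.9 CPM (-1.81, SE 0.20, adjusted p = 1.06e-07). In Kit+ CD45- cells Mmp2 averaged 21.2 ± 12.5 CPM with anti-Dll4 and 43.1 ± 27.9 CPM with IgG, where Kit+ CD45+ cells had 62.8 ± 14.2 CPM with IgG. Macrophage markers summed to at most 22.7 and 36.9 CPM in Kit+ CD45- libraries with anti-Dll4 and IgG. Mmp12 had no count in those libraries and averaged 6.49 and 4.12 CPM in Kit+ CD45+ cells, in the same order. The part of macrophage content in these protease values was not tested.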

How the data were processed

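RNA-seq was deposited for 24 libraries in 6 groups of 4. The deposited raw counts per gene and a deposited annotated table of log2 values were made by the authors. CASAVA 1.4, FastQC, STAR, HTSeq, DESeq2 and build mm10 are listed per the submitters' processing notes, with no other version, strand setting or annotation release given in the sources used here. The log2 values equalled log2 of the deposited counts divided by size factors of 0.454 to 1.56, plus 1, to within 5.33e-14. They served for gene names and types. The table's 1 column of log2 values for a library outside the listed samples was not used.

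Counts of 29716 genes were filtered with filterByExpr, which left 15618, scaled by TMM and fitted in edgeR 4.0.16 under R 4.3.3 with all 6 groups, giving 18 residual degrees of freedom and a biological coefficient of variation of 0.343. The quasi-likelihood test with Benjamini-Hochberg adjustment over all tested genes was called at 0.05, and the test was checked on simulated counts. No 2 libraries held identical values. CPM is the count divided by the TMM-scaled library size and expressed per 1e6, and CPM per kb divides it by the summed exon length. Library totals of 8718351 to 11379830 counts set the detection floor of 3 counts.

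The genes and the partner and marker lists were chosen with earlier results of these data known. Named genes were those with a group mean of at least 5 CPM, those called in a comparison, and at most 5 with the smallest p per partner list and comparison. Alternatives covered scaling, filters, DESeq2 1.42.0, samples in the fit, left-out libraries and the replicate block. Individual values of 1 tested gene are not reported here, and it stays in the counts over the genes.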

Additional observations from a re-analysis of the deposited data

Results flagged for a closer look

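In groups of 4 libraries, 78 groups of values were examined for a library far from the other 3, with chance alone marking about 1 in 20, and 6 were marked. Replicate 4 of the anti-Dll4 sets accounted for 3 of them. Col1a1 was at 51.8 CPM there in Kit+ CD45- cells, against 0.200 to 4.78 CPM in the other 3 libraries, and at 26.9 CPM in Kit- CD41+ CD45- cells, against 0.627 to 2.22 CPM. Col1a2 was at 51.2 CPM in Kit+ CD45- cells, against 3.15 to 4.51 CPM in the other 3. The sum of Dcn and Lum in these libraries was 393 and 168 CPM, and its part in the values was not tested. Other mesenchymal markers did not all follow. Pdgfra, Twist1 and Prrx1 reached at most 3.50, 7.56 and 8.88 CPM in anti-Dll4 Kit+ CD45- libraries, against 13.4, 35.4 and 20.4 CPM with IgG. Postn reached 67.6 CPM, against 12.4 CPM. Col4a1 was at 87.4 CPM in anti-Dll4 Kit+ CD45- replicate 1, against 49.0 to 55.0 CPM in the other 3. That library was among those set apart by sex-linked transcripts. Lamc1 was at 10.8 CPM in anti-Dll4 Kit+ CD45- replicate 2, against 16.6 to 17.1 CPM. The summed fibrillar level was 6.88 CPM in anti-Dll4 Kit+ CD45+ replicate 3, against 18.3 to 19.4 CPM.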

How the results depend on the processing

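Leaving out libraries kept 356 of 367 counts of calls and class sums within their limits and 1325 of 1450 single-gene calls, and other settings kept 134 of 146 and 405 of 430, with 0 reversed. Col4a1, Col4a2, Lamb1, Lamc1 and Lama4 were called in both comparisons with Kit- CD41+ CD45- cells, under both antibodies, in each setting and fit without libraries. Col15a1 was so in those that tested it, and the filter of 5 CPM removed it. Kit+ CD45+ against Kit+ CD45- cells under IgG gave 2 calls, 0 to 3 without libraries, 5 with DESeq2 and 4 with the replicate block by antibody set. Under anti-Dll4 it gave 6, and 1 to 7 without libraries. Kit+ CD45+ against Kit- CD41+ CD45- cells gave 13 under IgG, and 8 to 13 without libraries, and gave 14 under anti-Dll4, with 9 under a filter of 5 CPM. The mean basement membrane sum moved beyond 1 SD without globin genes to 320 CPM in anti-Dll4 Kit+ CD45+ and 366 CPM in IgG Kit+ CD45- cells. By raw CPM it was 350 and 364 CPM in anti-Dll4 and IgG Kit+ CD45+ cells. Without Col15a1 and Col18a1 it was 219 and 230 CPM in those groups, 249 CPM in IgG Kit+ CD45- cells, and 32.2 and 37.4 CPM in anti-Dll4 and IgG Kit- CD41+ CD45- cells. Correlations of the deviations of same-numbered libraries were -0.147 to 0.0999 between antibodies and -0.064 to 0.197 between populations. Between populations under one antibody the same-number median was 0.0522, against -0.0221 for other numbers, and a library correlated best with its own number in 31 of 48 cases. The sex-linked transcripts also set apart all 3 anti-Dll4 libraries numbered 1 and no others. The library names in the counts number the antibody sets from 1 to 8, each number covering the 3 populations of 1 replicate. These values and names point to a source shared by the populations of a set, though what a number marks is not stated. The main fit did not pair libraries by number, so its p-values between populations treat them as independent. The block by antibody set lost Col5a2, Col4a3 and Col23a1 and gained Col1a1 in Kit+ CD45+ over Kit- CD41+ CD45- cells under IgG, and gained Col1a1 and Col2a1 in Kit+ CD45+ over Kit+ CD45- cells under IgG. Under anti-Dll4 it lost Col1a2 and Col2a1 in the second of these comparisons, Col18a1 in Kit+ CD45- over Kit- CD41+ CD45- cells, and Col1a1 in the first, where Col9a1 was gained. Without the 3 anti-Dll4 libraries numbered 1 the anti-Dll4 calls numbered 6, 6 and 10 in Kit+ CD45- over Kit- CD41+ CD45-, Kit+ CD45+ over Kit+ CD45- and Kit+ CD45+ over Kit- CD41+ CD45- cells, with Col18a1 lost in the first and Col1a1, Col23a1, Col4a3 and Col5a2 among those lost in the last. The replicate block gave 8, 2 and 13 calls under IgG and 7, 5 and 13 under anti-Dll4 for Kit+ CD45- over Kit- CD41+ CD45-, Kit+ CD45+ over Kit+ CD45- and Kit+ CD45+ over Kit- CD41+ CD45- cells, and 0 for anti-Dll4 over IgG. Upper-quartile factors moved the median of all genes by 0.14 in Kit+ CD45- over Kit- CD41+ CD45- and by -0.11 in Kit+ CD45+ over Kit+ CD45- cells under anti-Dll4. The cause of these shifts was not tested. Genes under 1 CPM in every group rest on few counts. Between the Kit+ populations Col6a3 was called under both antibodies by DESeq2 and without a filter, and under anti-Dll4 Col4a6 by DESeq2 and Col9a3 without a filter.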

Other observations

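Several of the genes are neighbours in the genome and did not share one pattern of level. Col3a1 and Col5a2 lie tail to tail on chromosome 1 with 24614 bases between them. Col3a1 averaged 2.85 ± 2.54 CPM in anti-Dll4 Kit+ CD45+ cells and 10.7 ± 6.27 CPM in anti-Dll4 Kit- CD41+ CD45- cells (SD, n = 4 each), while Col5a2 averaged 6.52 ± 2.60 and 2.02 ± 1.47 CPM in the same groups. Col4a3 and Col4a4 start 71 bases apart on opposite strands of chromosome 1. Col4a4 failed the filter on low counts, and Col4a3 averaged at most 1.80 CPM in any group.

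The stromal protease Mmp11 had its highest level in Kit+ CD45- cells. It averaged 12.01 ± 4.34 CPM in Kit+ CD45+ cells, 109 ± 35.3 CPM in the Kit+ CD45- group and 30.6 ± 9.01 CPM among Kit- CD41+ CD45- cells under anti-Dll4 (SD, n = 4 each), and 13.4 ± 5.26, 74.0 ± 21.3 and 21.1 ± 5.94 CPM under IgG. It was lower in Kit+ CD45+ than in Kit+ CD45- cells by -3.19 (SE 0.34, adjusted p = 2.75e-07 by edgeR) under anti-Dll4 and -2.47 (SE 0.33, adjusted p = 8.63e-06) under IgG on the log2 scale.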
